A study of Mus musculus with 6 samples.

Results

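The SLC25 family of mitochondrial carriers was followed in bulk RNA of mouse bone marrow cells. Its members were the rows of the deposited gene table whose symbol was Slc25a followed by a number, which gave 46 genes of 25955 entries, with no symbol repeated. The study sorted TNCs, a term the labels do not spell out, from enzyme-digested marrow of C57BL/6 animals into 2 populations. CD44+CD51- cells gave 3 libraries and CD51+ cells another 3, numbered 1 to 3 in each population, with no treatment or transgene named and no age stated. The labels do not say whether the libraries came from separate animals, so a p-value here reflects the spread among these samples alone, which may be technical. CD51 is the integrin αV subunit and CD44 a hyaluronan receptor. The comparison asks how carrier transcripts differ between the populations, which the series title calls stromal and haematopoietic.

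SLC25 carriers sit mostly in the inner mitochondrial membrane, which is otherwise tight, and move nucleotides, phosphate, amino acids, carboxylates and cofactors across it. Each is made in the cytosol and threaded into the membrane by an import machinery. In marrow the family is known above all from red cell precursors, where carriers bring glycine and iron to the matrix for haem synthesis. In most cells the ADP/ATP and phosphate carriers serve the export of ATP made by respiration.

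Values are RPKM, reads per kilobase of gene scaled to library size, as the authors deposited them, and so can be set side by side between genes. The library size behind them, estimated from the steps between low values, ran from 12197833 to 32517059 reads. Means are given ± SD with n = 3 per group. A log2 change is the mean log2(RPKM + 1) of CD51+ cells less that of CD44+CD51- cells. Adjusted p-values come from limma, adjusted over every gene tested, and a gene passed the test below 0.05. Of the 46 members, 38 had an RPKM of at least 1 in at least 3 of the 6 libraries and were tested. The 8 others were Slc25a2, Slc25a18, Slc25a27, Slc25a31, Slc25a34, Slc25a41, Slc25a53 and Slc25a54, none of which exceeded a group mean of 0.88. Slc25a31, Slc25a34 and Slc25a54 were listed at 0 in every CD44+CD51- library.

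The populations differed widely beyond the carriers. Of all genes tested, 29.7% were lower in CD51+ cells and 24.1% were higher. The 10 stromal marker genes, such as Lepr and Col1a1, summed to between 23.99 and 165.9 RPKM in CD44+CD51- libraries and between 33672 and 44454 in CD51+ libraries, with all 10 higher. The 7 neutrophil markers were all higher in CD51+ cells as well, with sums of 5698 to 28218 and of 84166 to 86931. Of them 3 were called under quantile normalization, and 5 with no filter or without CD44+CD51- library 3. The 6 macrophage markers were also all higher (sums of 5.81 to 61.8 and 336 to 399). Erythroid markers were abundant in both populations, with sums of 6772 to 10183 and of 7797 to 12028. Of these 10, 6 were lower in CD51+ cells and 3, all globins, were higher. The number higher was 1 without CD44+CD51- library 3, CD51+ library 2 or CD51+ library 3. Klf1, a regulator of red cell genes, averaged 750.2 ± 103 RPKM in the CD44+CD51- libraries against 260.1 ± 41.1. Of 7 B lineage markers tested 6 were lower (sums over the list of 250.9 to 747 and 63.3 to 117.6). Of 7 proliferation markers 4 were lower (sums of 482 to 599 and 325 to 465). None was under a trimmed-mean rescaling of the libraries or without CD51+ library 2, 1 was without CD44+CD51- library 2, and 2 were without CD44+CD51- library 3 or CD51+ library 1. In bulk samples fewer cells of a type and less RNA per cell cannot be told apart, and the part of these markers in the carrier results was not tested.

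Among carriers, more were lower than higher in CD51+ cells. Of the 38 tested, 13 were lower, 2 were higher and 23 did not pass the test. Those are 34.2% and 5.26% of the tested members, beside 29.7% of all 11741 genes tested that were lower and 24.1% that were higher. In either direction the calls were 39.5% of members and 53.7% of all genes. The share of members that was lower was near the background. The median log2 change was -0.33 over the tested members and -0.23 over all genes, and the members ranged from -1.31 to 1.14. With the filter at an RPKM of 5 these medians were nearly equal, -0.363 over members and -0.366 over all genes. Carriers with a change of at least 1 on the log2 scale that passed the test numbered 3, or 7.89%, beside 25.9% of all genes. Of these, 2 were lower and 1 was higher, beside 7.62% and 18.3% of all genes. In 19 members the 3 CD51+ values lay wholly below the CD44+CD51- values and in 3 wholly above (50% and 7.89%, beside 37.5% and 26.1% of all genes). With the replicate number as a block, 19 were lower and 4 higher (backgrounds 41.3% and 27.8%, in all 69.2%), the 8 added being Slc25a1, Slc25a4, Slc25a16, Slc25a30, Slc25a32, Slc25a33, Slc25a36 and Slc25a37. Scaling moved the split as well. Under the trimmed-mean rescaling 10 were lower and 3 higher (backgrounds 19.1% and 28%, in all 47.1%), and under quantile normalization 19 and 3 (38.9% and 20.6%, in all 59.5%).

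**Figure D1:**
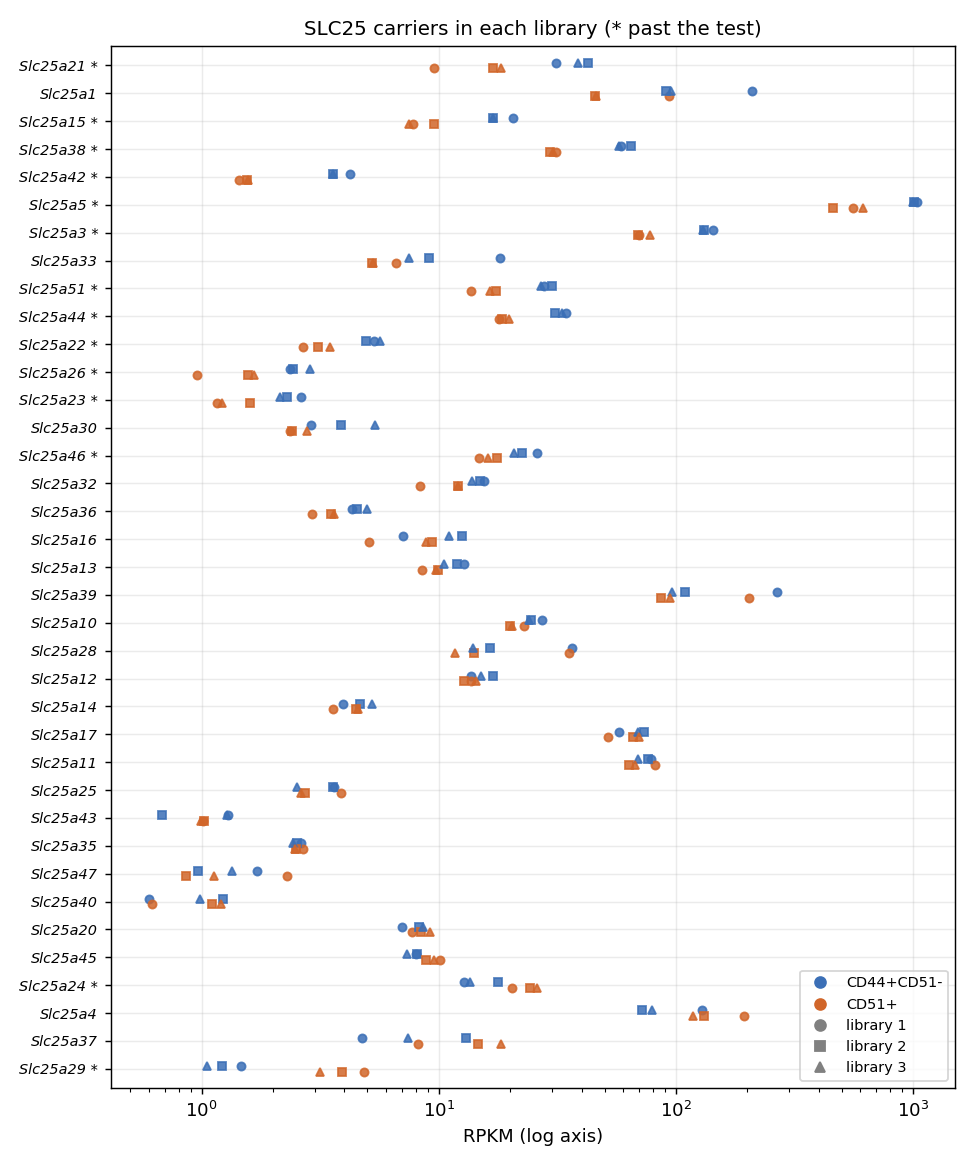
RPKM on a log axis for 37 tested carriers in each library, sorted by log2 change with the most negative at the top. Blue points are CD44+CD51- and orange points CD51+ libraries, shapes give the library number, and asterisks mark the 14 of them past the test. Slc25a5, with a mean of 1016 in CD44+CD51- cells, lies far to the right of every other carrier.

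The summed RPKM of the family was a share of all RPKM that did not overlap between the groups. Summed over the 46 members, RPKM was 2333, 1964 and 1917 in the CD44+CD51- libraries and 1529.7, 1206.5 and 1379 in the CD51+ libraries. As a share of all RPKM this was 0.428 ± 0.0497% and 0.227 ± 0.0309%, lower in every CD51+ library (two-sided exact permutation p = 0.1, the lowest value that 3 libraries a side allow). When the 20 entries of highest mean were left out of the total, the shares were 0.490% and 0.339%. The stromal and neutrophil genes described above are part of that total, and their part in the share was not tested.

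Promoter windows from RefSeq (GRCm38.p6, 250 bases before to 50 after the start) were at hand for 35 of the 46 members. Of those, 8 had passed the test as lower, and only these are said here to have fallen. Windows are shown for the 3 most abundant carriers that fell and for the largest rise that passed the test. They run 5′ to 3′, with matches to 6 motifs in capitals.
Slc25a5 (chrX:36795347-36795646, plus strand): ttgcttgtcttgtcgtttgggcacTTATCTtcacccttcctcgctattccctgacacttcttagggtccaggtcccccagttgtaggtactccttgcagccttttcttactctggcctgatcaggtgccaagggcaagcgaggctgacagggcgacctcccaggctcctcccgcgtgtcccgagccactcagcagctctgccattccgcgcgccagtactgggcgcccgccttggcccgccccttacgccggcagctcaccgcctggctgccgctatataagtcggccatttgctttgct
Slc25a3 (chr10:91123918-91124217, minus strand): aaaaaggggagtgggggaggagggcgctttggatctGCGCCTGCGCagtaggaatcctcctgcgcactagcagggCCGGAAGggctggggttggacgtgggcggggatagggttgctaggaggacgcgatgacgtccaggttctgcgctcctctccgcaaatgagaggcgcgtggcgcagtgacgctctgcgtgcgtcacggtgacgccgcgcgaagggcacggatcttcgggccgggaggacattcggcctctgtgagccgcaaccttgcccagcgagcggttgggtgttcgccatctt
Slc25a38 (chr9:120110132-120110431, plus strand): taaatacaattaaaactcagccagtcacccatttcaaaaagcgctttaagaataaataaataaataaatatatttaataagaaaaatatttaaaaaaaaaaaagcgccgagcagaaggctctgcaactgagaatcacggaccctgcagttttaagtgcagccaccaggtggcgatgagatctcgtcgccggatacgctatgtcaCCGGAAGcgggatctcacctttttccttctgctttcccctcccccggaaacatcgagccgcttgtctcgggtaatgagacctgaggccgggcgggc
Slc25a29 (chr12:108835827-108836126, minus strand): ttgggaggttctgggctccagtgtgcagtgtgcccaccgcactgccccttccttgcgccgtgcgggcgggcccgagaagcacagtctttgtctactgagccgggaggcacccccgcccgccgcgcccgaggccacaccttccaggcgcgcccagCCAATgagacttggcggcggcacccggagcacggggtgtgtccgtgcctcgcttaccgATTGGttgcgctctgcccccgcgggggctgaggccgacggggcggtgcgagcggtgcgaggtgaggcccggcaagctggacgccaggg
The motifs, searched on both strands, were AGATAA for GATA factors, GCGCA then any base then GCGC for NRF1, CCGGAAG for ETS factors, CACGTG for E-box factors, CCAAT for NF-Y and TATAAA for the TATA box. The capitals are a GATA match in Slc25a5, NRF1 and ETS matches in Slc25a3, an ETS match in Slc25a38 and 2 CCAAT matches in Slc25a29. ETS letters stood in 7 of the 35 members' windows, 2 of them among the 8 that fell, beside 9.12% of all 27025 windows. CCAAT stood in 17, 3 among those that fell, beside 37.9%. The GATA letters stood in 2 members, Slc25a5 and Slc25a53, beside 11.4%, and the NRF1 letters in Slc25a3 and Slc25a31, beside 4.78%. E-box letters stood in 6 members, none of them among the 8 that fell, beside 7.24%, and the TATA letters in 1, beside 14.2%. Of those E-box members, Slc25a1, Slc25a33 and Slc25a36 were lower with the replicate block (limma adjusted p = 0.000260, 0.00562 and 0.0395). Where a gene had several windows, the one nearest the GENCODE gene start was taken for members and the first listed for other genes. The member counts and the shares over all windows thus rest on unlike choices. Such matches are letters in a window, not sites shown to be bound.

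Adenine nucleotide and phosphate carriers made up most of the family's RNA. Slc25a5 (chromosome X, 36795651 to 36798807, plus strand), the ADP/ATP carrier that predominates in dividing cells, measured 1040.0, 1004.9 and 1001.9 RPKM in CD44+CD51- libraries. In CD51+ libraries it measured 559.5, 459.5 and 617. Every CD51+ value was thus below every CD44+CD51- value, and the gene fell by 0.91 on the log2 scale (SE 0.205, adjusted p = 0.00920). It alone held 49.3 ± 4.16% of the summed SLC25 RPKM in CD44+CD51- cells, against 39.8 ± 4.35%, with overlap. GENCODE M21 names 1 pseudogene of Slc25a5, and reads shared with such a copy could be split between them.

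Slc25a3 (chromosome 10, 91116574 to 91124059, minus strand), which imports the phosphate used by ATP synthase, measured 142.9, 131.03 and 129.9 in CD44+CD51- libraries. Its CD51+ values were 69.7, 69.3 and 77.4. The groups were far apart against their spread, and the gene fell by 0.89 (SE 0.133, adjusted p = 0.00169).

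Slc25a4 (chromosome 8, 46206797 to 46211284, minus strand), the ADP/ATP carrier of heart and muscle, went the other way in its values. It measured 129.1, 71.7 and 78.9 in CD44+CD51- libraries and 193.8, 130.9 and 117.8 in CD51+ libraries. Library 1 was the highest in each group, the groups overlapped, and the change of 0.67 did not pass the test (adjusted p = 0.0848). With the replicate block the adjusted p was 0.00282, and the CD51+ library was higher in all 3 same-numbered pairs, by 0.58, 0.86 and 0.57. Without CD44+CD51- library 1 the adjusted p was 0.0234, and under quantile normalization 0.0433, where the alternatives spanned 0.00282 to 0.228.

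The balance between these paralogs was measured within each library. Slc25a4 was 11.04%, 6.66% and 7.30% of the summed RPKM of Slc25a4 and Slc25a5 in CD44+CD51- libraries and 25.7%, 22.2% and 16.03% in CD51+ libraries. The CD51+ shares were all higher (means 8.33 ± 2.37% and 21.3 ± 4.90%, exact permutation p = 0.1, 0.3 after adjustment over 9 pairs). A share within a pair does not depend on how a library is scaled.

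The calcium-regulated ATP-Mg/phosphate carriers, which set the matrix adenine nucleotide pool, did not move as one. Slc25a24 (chromosome 3, 109123149 to 109168457, plus strand) measured 12.7, 17.7 and 13.5 in CD44+CD51- libraries and 20.4, 24.2 and 25.9 in CD51+ libraries. All CD51+ values were higher, and it rose by 0.65 (SE 0.174, adjusted p = 0.0172). The call was lost without CD44+CD51- library 3 (adjusted p = 0.0647) or CD51+ library 2 (0.0607) or 3 (0.0565).

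Slc25a23 (chromosome 17, 57043711 to 57059863, minus strand) measured 2.61, 2.29 and 2.13 in CD44+CD51- libraries and 1.16, 1.60 and 1.22 in CD51+ libraries. Its groups did not overlap either, in the opposite direction, and it fell by 0.52 (SE 0.143, adjusted p = 0.0187). That call was lost without CD44+CD51- library 1 (adjusted p = 0.0560) or CD51+ library 3 (0.0535) and under a trimmed-mean rescaling (0.0561). Slc25a25 measured 3.60, 3.58 and 2.53 against 3.86, 2.72 and 2.64, and its groups overlapped (adjusted p = 0.803). Slc25a23 was 14.04 ± 2.81% of the summed RPKM of Slc25a23 and Slc25a24 in CD44+CD51- cells, against 5.37 ± 0.848%, with no overlap (exact permutation p = 0.1, adjusted 0.3).

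**Figure D2:**
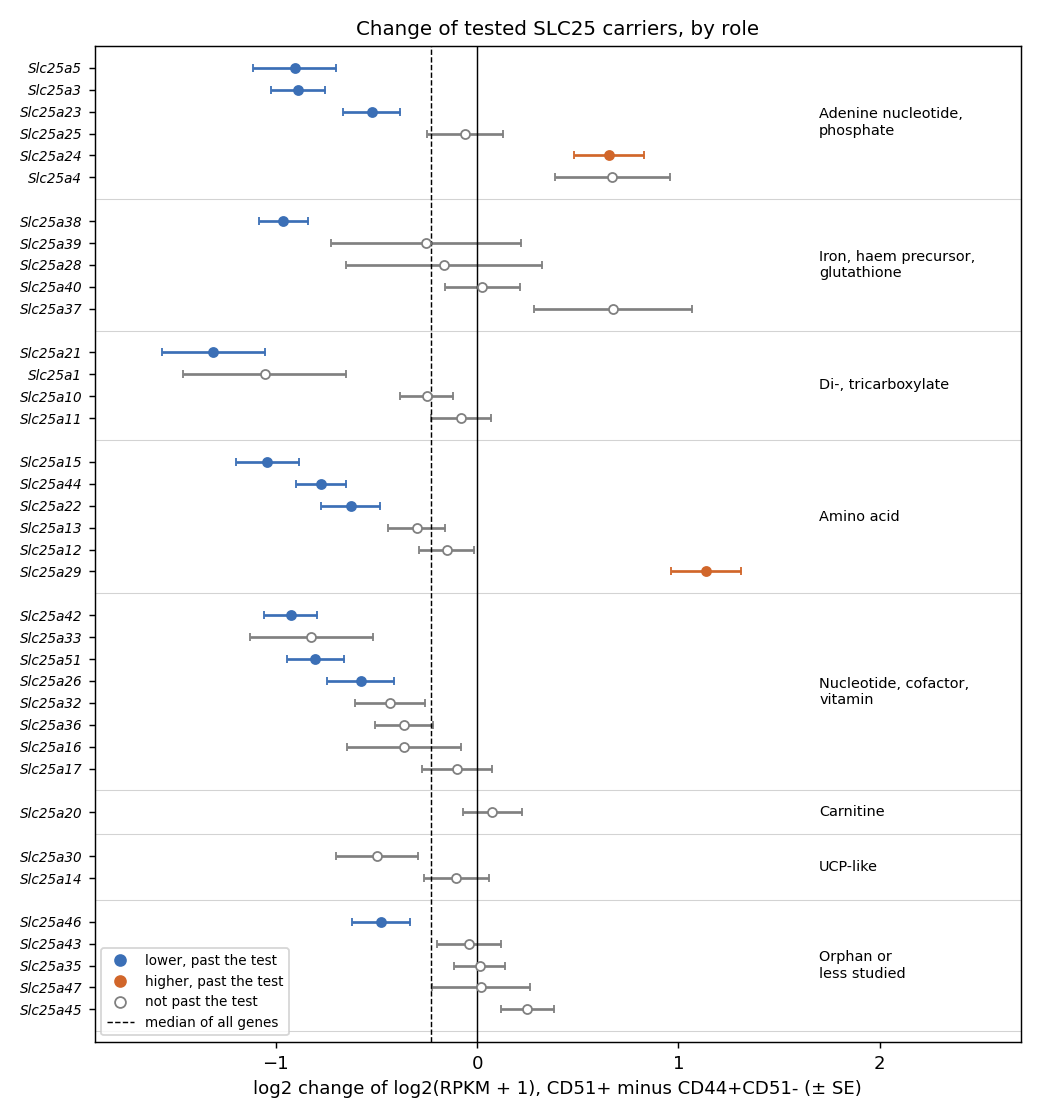
Log2 change of 37 tested carriers (log2(RPKM + 1) of CD51+ cells less that of CD44+CD51- cells, bars are SE), grouped by the substrate it is known to carry. Filled blue and orange points passed the test, open points did not, and the dashed line is the median of all genes, -0.23. Slc25a24 and Slc25a29 are the only filled orange points.

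Carriers that feed haem and glutathione were uneven. Slc25a38 (chromosome 9, 120110374 to 120124504, plus strand), the glycine importer at the start of haem synthesis, measured 58.5, 64.4 and 57.4 in CD44+CD51- libraries. It measured 31.2, 29.3 and 30.4 in CD51+ libraries, with a wide gap between the groups, and fell by 0.96 (SE 0.123, adjusted p = 0.000887). Of the 5 carriers in this role it alone passed the test, which 53.7% of all genes passed.

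Slc25a37 (chromosome 14, 69241848 to 69285112, minus strand), or mitoferrin 1, the iron importer of red cell precursors, did not follow Slc25a38. It measured 4.74, 12.99 and 7.41 in CD44+CD51- libraries and 8.14, 14.6 and 18.3 in CD51+ libraries. The groups overlapped, the change was 0.68 (SE 0.392), and it did not pass the test (adjusted p = 0.184). With the replicate block the adjusted p was 0.0177, with same-numbered differences of 0.67, 0.16 and 1.20. Its exons share 381 bases with Gm31748 on the other strand. The library kit does not mark strand in its usual use, so such reads could not be told apart.

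Slc25a28 (chromosome 19, 43663801 to 43674881, minus strand), mitoferrin 2, the iron importer of most other tissues, measured 36.5, 16.4 and 14.0 in CD44+CD51- libraries. Its CD51+ values were 35.3, 14.1 and 11.6. Library 1 stood far above the others in each group, and the difference did not pass the test (adjusted p = 0.789). Mitoferrin 1 was 11.5%, 44.2% and 34.6% of the summed RPKM of both mitoferrins in CD44+CD51- libraries and 18.7%, 50.8% and 61.1% in CD51+ libraries, which overlapped (exact permutation p = 0.4).

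Slc25a39 (chromosome 11, 102402985 to 102407946, minus strand), a glutathione importer, is shown with every library since they differ widely. It measured 267, 109.2 and 96.5 there and 203, 86.8 and 93.97 in CD51+ cells. Library 1 again stood far above the others in both groups, and the difference did not pass the test (adjusted p = 0.669). Its homolog Slc25a40 measured 0.601, 1.23 and 0.981 against 0.616, 1.10 and 1.20, so Slc25a39 held 99.2 ± 0.487% and 99.1 ± 0.552% of the pair.

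Beside these carriers, 6 of 11 mitochondrial iron and haem genes tested were lower in CD51+ cells and 2 were higher. Over all genes 29.7% were lower and 24.1% higher. With the replicate block 8 of the 11 were lower, beside 41.3% of all genes. Cpox, which makes a late intermediate of haem, fell by 1.15. Alas1 and Alas2, the enzymes that join glycine to succinyl-CoA, rose by 1.28 and 2.21. The call of Alas2 was lost without CD44+CD51- library 3 (adjusted p = 0.0502) or CD51+ library 3 (0.0511). The erythroid markers given above moved both ways beside Slc25a38, Klf1 and Gata1 down and the globins up.

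Among carboxylate carriers 1 of 4 was lower and none was higher, beside 29.7% and 24.1% of all genes. Slc25a21 (chromosome 12, 56712634 to 57197472, minus strand), which exchanges oxodicarboxylates of lysine breakdown, measured 31.3, 42.8 and 38.5 in CD44+CD51- libraries and 9.56, 16.97 and 18.3 in CD51+ libraries. No CD51+ value came near the lowest CD44+CD51- value, and the gene fell by 1.31 (SE 0.257, adjusted p = 0.00507). The ratio of the means was 2.51. Its log2 change was the most negative of the tested carriers here, but not under quantile normalization, where that of Slc25a42 was -1.48 against -1.20, nor without CD44+CD51- library 2 or CD51+ library 1, where that of Slc25a1 was -1.27 and -1.39. Exons of Slc25a21 share 189 bases with Pax9 on the other strand.

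Slc25a1 (chromosome 16, 17925223 to 17928219, minus strand), which exports citrate for fatty acid synthesis, was at 131.6 ± 66.8 and 61.6 ± 27.4. Its library values were 208.7, 90.4 and 95.7 against 93.2, 45.6 and 45.9, so that library 1 of CD51+ cells lay within the CD44+CD51- range. The change of -1.06 did not pass the test (adjusted p = 0.0628). Within same-numbered pairs the difference was -1.15, -0.97 and -1.04, and with the replicate block the adjusted p was 0.000260. Without CD51+ library 1 it was 0.0253. Slc25a10 and Slc25a11, the dicarboxylate and oxoglutarate carriers, were at 25.2 ± 1.74 and 21.02 ± 1.62 and at 74.5 ± 5.05 and 70.7 ± 9.32, and neither passed the test.

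Among enzymes of the malate-aspartate and citrate shuttles, which use these carriers, 6 of 8 were lower in CD51+ cells and 1 was higher. Over all genes tested 29.7% were lower and 24.1% higher. The number lower was 3 without CD51+ library 2 and 3 under the trimmed-mean rescaling, where 19.1% of all genes were lower. Cs, citrate synthase, fell by 1.06 and Got2, the mitochondrial aspartate aminotransferase, by 0.85 (without CD51+ library 2, adjusted p = 0.0575). The exception was Me1, cytosolic malic enzyme, at 0.118 ± 0.0571 and 5.76 ± 1.09 (log2 change 2.58). Me1 passed the filter only through the CD51+ libraries, where it was high, so its call adds nothing to these values. With the filter at an RPKM of 5 no gene of this list was called higher. The aspartate/glutamate carriers of the same shuttle, Slc25a12 and Slc25a13, were at 15.2 ± 1.59 and 13.6 ± 0.797 and at 11.7 ± 1.10 and 9.35 ± 0.774. Neither passed the test.

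Amino acid carriers included the only called rise of at least 1 on the log2 scale. Slc25a29 (chromosome 12, 108825873 to 108835883, minus strand), which carries arginine and lysine, measured 1.46, 1.21 and 1.05 in CD44+CD51- libraries and 4.84, 3.91 and 3.15 in CD51+ libraries. The lowest CD51+ value was above the highest CD44+CD51- value, and the gene rose by 1.14 (SE 0.173, adjusted p = 0.00184), with means 3.19-fold apart. By estimated reads it is one of the thinner members, with 53.0 to 331 reads per library.

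Slc25a15 (chromosome 8, 22375551 to 22398597, minus strand), the ornithine carrier of the urea cycle, moved opposite to Slc25a29. It measured 20.5, 16.9 and 16.9 in CD44+CD51- libraries and 7.77, 9.54 and 7.51 in CD51+ libraries, and fell by 1.04 (SE 0.156, adjusted p = 0.00170). The lowest CD44+CD51- value was far above the highest CD51+ value. Slc25a44, a carrier of branched-chain amino acids, fell from 32.8 ± 1.80 to 18.7 ± 0.905 and Slc25a22, a glutamate carrier, from 5.30 ± 0.358 to 3.08 ± 0.409 (adjusted p = 0.00220 and 0.0102). The other glutamate carrier, Slc25a18, did not pass the filter in either group, so that Slc25a22 held 98.3% of that pair in each population.

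Of 9 nucleotide, cofactor and vitamin carriers, 4 were lower in CD51+ cells and none was higher, beside 29.7% and 24.1% of all genes. With the replicate block 8 of the 9 were lower, beside 41.3% of all genes. Slc25a42 (chromosome 8, 70184340 to 70212305, minus strand), which imports coenzyme A, measured 4.21, 3.58 and 3.60 in CD44+CD51- libraries and 1.44, 1.55 and 1.57 in CD51+ libraries. It fell by 0.93 (SE 0.133, adjusted p = 0.00146), with a wide gap between the groups. Slc25a16, its nearest relative, measured 7.06, 12.6 and 11.1 against 5.07, 9.40 and 8.83, and the groups overlapped (adjusted p = 0.307, or 0.0297 with the replicate block). Slc25a16 held 72.0 ± 8.17% of that pair in CD44+CD51- cells against 82.9 ± 4.31%, all CD51+ shares being the higher (exact permutation p = 0.1, adjusted 0.3). The groups nearly touched, at 77.82% in CD44+CD51- library 2 and 77.94% in CD51+ library 1.

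Slc25a51, the NAD carrier, fell from 28.2 ± 1.54 to 15.8 ± 1.93 (adjusted p = 0.00333), a call that held in all 12 alternatives. Slc25a26, which imports S-adenosylmethionine, was at 2.54 ± 0.277 and 1.39 ± 0.380 (adjusted p = 0.0233). Its call was lost without CD44+CD51- library 2 (adjusted p = 0.0505) or 3 (0.0846), with no filter (0.0564) and under the trimmed-mean rescaling (0.0596). The pyrimidine nucleotide carriers Slc25a33 and Slc25a36 were at 11.6 ± 5.75 and 5.69 ± 0.789 and at 4.59 ± 0.345 and 3.35 ± 0.366. They did not pass the test (adjusted p = 0.0568 and 0.0676) but did with the replicate block (0.00562 and 0.0395) and under quantile normalization (0.0307 and 0.00480). Slc25a33 also did without CD44+CD51- library 3 (0.0352). Slc25a32, a carrier of folate and flavin, was at 14.8 ± 0.866 and 10.8 ± 2.14 (adjusted p = 0.0731). It passed the test with the replicate block (0.0398) but not under quantile normalization (0.0557). Slc25a17, the peroxisomal carrier of the family, was at 66.7 ± 8.08 and 62.4 ± 9.49 and overlapped (adjusted p = 0.643).

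The remaining roles held 1 call. Slc25a20, which brings acylcarnitines in for fat burning, was at 7.94 ± 0.821 and 8.41 ± 0.739 (adjusted p = 0.685). Of the carnitine enzymes on either side of it, 2 of 4 were lower, beside 29.7% of all genes, Cpt2 by 0.56 and Cpt1a by 0.49. Neither was under the trimmed-mean rescaling or without CD44+CD51- library 3, and 1 was without CD44+CD51- library 1 or 2 or CD51+ library 2 or 3. The uncoupling protein-like Slc25a14 and Slc25a30 did not pass the test (adjusted p = 0.607 and 0.0766), the latter at 4.04 ± 1.24 and 2.51 ± 0.233, with 0.0230 under the block, 0.00769 under quantile normalization and 0.0287 without CD44+CD51- library 1. Slc25a46, an outer membrane relative tied to mitochondrial fission, was at 23.03 ± 2.59 and 16.2 ± 1.41 (adjusted p = 0.0271). Its call was lost without CD44+CD51- library 1 (0.0704) or 2 (0.0677) or CD51+ library 1 (0.0560) or 3 (0.0638), and under the trimmed-mean rescaling (adjusted p = 0.164). The other 4 tested members, Slc25a35, Slc25a43, Slc25a45 and Slc25a47, had changes between -0.04 and 0.25 and did not pass the test. Slc25a45 did under the trimmed-mean rescaling (adjusted p = 0.0277), with a change of 0.47. Under quantile normalization Slc25a43 and Slc25a35 did (adjusted p = 0.0121 and 0.0396), with changes of -0.79 and -0.43.

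**Figure D3:**
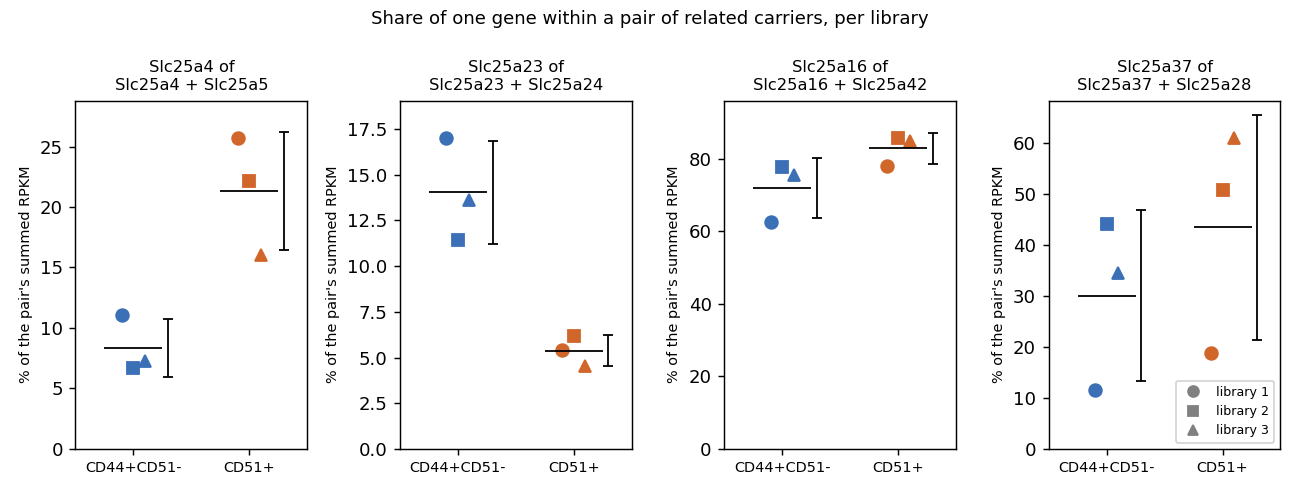
Share that one gene holds of the summed RPKM of a pair of related carriers, in percent, for each library. Symbols give the library number, lines the mean of 3 libraries and bars the SD. The groups do not overlap in the first 3 panels, such as 6.66 to 11.04% against 16.03 to 25.7% for Slc25a4, and overlap for Slc25a37. For Slc25a16 they nearly touch, at 77.82% in CD44+CD51- library 2 and 77.94% in CD51+ library 1.

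Relatives and partners of the carriers are given beside the 29.7% of all genes that were lower and the 24.1% that were higher. Of 14 tested genes of the carrier import machinery, 10 were lower in CD51+ cells and none was higher, with a median log2 change of -0.84, and 13 were lower with the replicate block (41.3% of all genes). Without CD44+CD51- library 3 the number was 6. Tomm40, the channel of the outer membrane, fell by 1.42 and Timm10, a small chaperone of carrier precursors, by 1.33. Of 7 porin and calcium uniporter genes 3 were lower and 2 higher, with 1 lower under the trimmed-mean rescaling and without CD44+CD51- library 2 or 3 or CD51+ library 2. Vdac1, a channel of the outer membrane, fell by 0.97 and Vdac2 by 0.64. Mcu, the pore of the calcium uniporter, rose by 0.75. Sfxn1, the serine carrier of the sideroflexin family, fell by 1.03 and Sfxn2 by 0.74. These were the 2 called among 5 tested genes of the pyruvate carrier and sideroflexins. Of family members with other symbols, Ucp2 (228.6 ± 53.2 and 145.6 ± 18.9) and Mtch2 (38.5 ± 3.71 and 22.8 ± 1.98) fell and Mtch1 did not pass the test. The Ucp2 call was lost in 8 of 12 alternatives, 5 of them leaving out a library (highest adjusted p = 0.136, without CD44+CD51- library 2).

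Libraries numbered 1 stood apart for several carriers in both groups. Library 1 was above libraries 2 and 3 in both populations for 12 of 38 tested members (31.6%, beside 19.4% of all genes) and below both for 11 (28.9%, beside 34.8%). By a mean ratio of at least 1.5, a limit chosen after the values were seen, it was above in 6 (15.8%, beside 7.68% of all genes), namely Slc25a1, Slc25a4, Slc25a28, Slc25a33, Slc25a39 and Slc25a47. Slc25a39 was 2.60-fold and 2.24-fold higher in library 1 than in the mean of libraries 2 and 3, in CD44+CD51- and CD51+ cells, and Slc25a28 2.40-fold and 2.74-fold. Slc25a37 was the reverse, at 0.464 and 0.495 of the mean of the others. None of these 7 passed the test, and for 4 of them, Slc25a1, Slc25a4, Slc25a33 and Slc25a37, the replicate block brought a call.

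**Figure D4:**
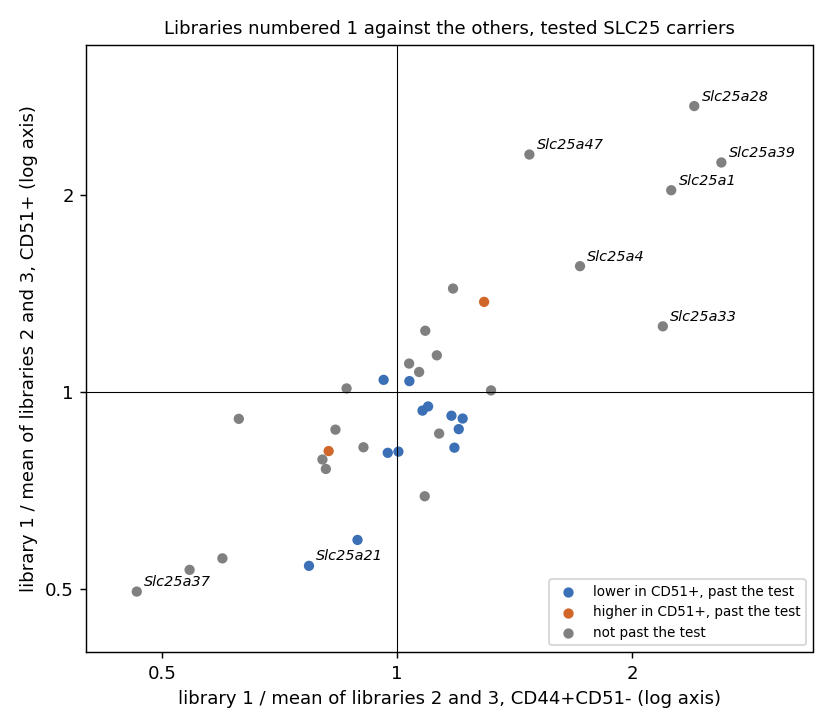
Ratio of library 1 to the mean of libraries 2 and 3 for 37 tested carriers, CD44+CD51- on the x axis and CD51+ on the y axis, both log axes. Blue and orange points passed the test as lower or higher in CD51+ cells, grey points did not. Slc25a28 and Slc25a39 lie at the upper right, above 2.2 on both axes, and Slc25a37 at the lower left, below 0.5 on both.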

How the data were processed

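RNA of 6 libraries was measured by bulk sequencing (RNeasy Plus Micro extraction, Nextera XT libraries, per the labels' protocols). The authors deposited RPKM per gene, 1 column per library, per the file headers. Per the submitters' processing notes, edgeR 3.16.5 and build GRCm38 were used. The aligner, counter and annotation are not given in the sources used here. Gene positions are from GENCODE M21 on GRCm38, which held all 46 members. Exons of 12 members overlap a gene on the other strand, the called members Slc25a21, Slc25a23, Slc25a26 and Slc25a46 among them. On the same strand, the called member Slc25a51 shares 125 exonic bases with Gm25692, and Slc25a47 shares 5 with Mir345.

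The library size was estimated from the RPKM of single reads with exonic lengths. Of 32131 low values (20 reads or fewer), 89.8% then lay within 0.05 of a whole read. Tested members had at least 22.0 estimated reads in every library. Estimated reads rest on that library size and on GENCODE exonic lengths, so they carry the error of both besides counting error. They do not measure the spread among samples.

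Genes with RPKM of at least 1 in at least 3 of 6 libraries (11741) were fitted as log2(RPKM + 1) with limma (version 3.58.1, R 4.3.3). The variance prior followed mean expression, tests were two-sided, and Benjamini-Hochberg adjustment ran over all 11741. The pseudocount makes changes of low genes smaller than the ratio of their means. Shares were compared by exact permutation tests. Same-numbered libraries deviated together from their group means across genes (r = 0.619, 0.286 and 0.516 for numbers 1, 2 and 3). Differently numbered pairs ran from -0.583 to 0.324, with CD44+CD51- library 3 and CD51+ library 2 at 0.324 and CD44+CD51- library 2 and CD51+ library 3 at 0.198, so numbers 2 and 3 were less apart than number 1. Every same-numbered correlation was over 0.1, but so were these differently numbered ones, so that limit does not tell them apart. The fit with the number as a block is given where it changes the call of a carrier. For related and marker lists it is given for some only. It changed counts in others, such as 4 in place of 3 lower among porin and calcium uniporter genes. What the numbers share is not stated in the labels.

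Values in every library are given for carriers past the test with a log2 change of at least 1, for the iron, haem and glutathione and the adenine nucleotide and phosphate lists, and for pairs whose shares did not overlap. Other genes are among the largest changes of their list. The members and lists were chosen with earlier results of these data known. Some genes, 1 carrier among them, enter the counts but are not reported here.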

Additional observations from a re-analysis of the deposited data

How the results depend on the processing

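The alternatives were a pseudocount of 0.1, no filter, a filter at RPKM of 5, a trimmed-mean rescaling, quantile normalization, the replicate block and leaving out each library. Of the 15 called carriers, 11 passed the test in every alternative in which they were tested, among them Slc25a3, Slc25a5, Slc25a15, Slc25a21, Slc25a22, Slc25a29, Slc25a38, Slc25a42, Slc25a44 and Slc25a51. The others lost calls in 15 of their alternatives. The all-gene median shifted by 0.20 under trimmed-mean rescaling and by -0.13 under quantile normalization. Calls over all genes were 44.8% higher, 59.4% and 34.6% under these, and calls among carriers 13.3%, 23.1% and 13.6%.

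Carriers called higher were 4 with the replicate block, 1 at RPKM of 5, where Slc25a29 was not tested, and 1 to 3 without 1 library. All genes called higher were 1613 at RPKM of 5. Under trimmed-mean rescaling 2248 genes and 24 related genes were lower, beside 3484 and 38. Where not stated, the cause was not tested.

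Signs turned only for changes that had not passed the test. Under trimmed-mean rescaling they became 0.16 (Slc25a11), 0.077 (Slc25a12), 0.093 (Slc25a14), 0.14 (Slc25a17), 0.13 (Slc25a25), 0.067 (Slc25a28) and 0.082 (Slc25a43). Under quantile normalization they became 0.12 (Slc25a11), 0.08 (Slc25a17), -0.012 (Slc25a20), -0.43 (Slc25a35, adjusted p = 0.0396), -0.72 (Slc25a40, adjusted p = 0.00213) and -0.61 (Slc25a47). Leaving out 1 library, changes ran from -0.199 to 0.028 (Slc25a17), -0.003 to 0.131 (Slc25a20), -0.193 to 0.016 (Slc25a25), -0.629 to 0.239 (Slc25a28), -0.012 to 0.034 (Slc25a35), -0.640 to 0.203 (Slc25a39), -0.105 to 0.164 (Slc25a40), -0.185 to 0.038 (Slc25a43) and -0.223 to 0.188 (Slc25a47). The differences in share, in percentage points, ran from -0.793 to 0.707 for Slc25a22 of the glutamate carriers and from -0.475 to 0.122 for Slc25a39 of the glutathione carriers.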

Other observations

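Regulators of mitochondrial biogenesis were lower in 7 of 10 tested genes and higher in none, beside 29.7% and 24.1% of all genes, and lower in 10 with the replicate block, beside 41.3%. Pprc1, a coactivator of nuclear genes for mitochondria, fell from 30.6 ± 7.30 to 10.9 ± 1.52 RPKM and Ppargc1b, a related coactivator, from 4.10 ± 0.635 to 1.34 ± 0.319. Under trimmed-mean rescaling 4 of the 10 were lower, beside 19.1%.

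Transcripts encoded by mitochondrial DNA did not pass the limma test in any of 7 genes tested, with 0 at an unadjusted p below 0.05. With the replicate block 1 was lower, mt-Nd1, and under quantile normalization 3. The 6 others, among them mt-Co2 and mt-Atp6, were at or near 0 in every library while mt-Co1 was at 2893 ± 388 and 1923 ± 582. How the authors' counting treated those genes is not known, so the summed level of this list is no measure of mitochondrial RNA.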
